A study of Mus musculus with 20 samples.

Results

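Mitochondrial ribosomal proteins are the nuclear-encoded proteins of the ribosome that works inside mitochondria. They were followed here in differentiated 3T3-L1 cells, a mouse line derived from Swiss mouse embryo fibroblasts that turns into fat cells in culture. Members were the protein-coding rows of the deposited table whose identifier maps to a mouse symbol beginning with Mrpl or Mrps and a digit. The rule uses names alone and found 78 genes among 48440 rows. Of these, 49 carry large subunit symbols (Mrpl) and 29 carry small subunit symbols (Mrps). Another 5 rows with such symbols are processed pseudogenes and were left out. The study holds 20 total RNA libraries in 8 groups. Cells labelled as overexpressing FOXK1 or FOXK2 were set against cells carrying an empty vector, and cells with an shRNA to Foxk1 or Foxk2 against cells with a scrambled shRNA. Each Foxk1 group has 3 libraries and each Foxk2 group has 2, and every manipulation has control libraries of its own. All groups went through the same differentiation, which used insulin at 5 µg/ml with troglitazone at 10 µM, IBMX at 0.5 mM and dexamethasone at 1 µM. From day 4 the cells had insulin alone, and from day 6 growth medium. The line is 1 immortalized cell line, and the labels leave unsaid whether replicate libraries come from separate cultures. The p-values therefore measure only the spread between these libraries, which may be technical.

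The mitochondrial ribosome translates the few messages of the mitochondrial genome, all of which encode core subunits of the respiratory chain and of ATP synthase. Its ribosomal RNAs are transcribed from mitochondrial DNA, whereas its proteins are made in the cytosol and imported, so that 2 genomes have to supply 1 particle. In fat cells, mitochondrial number and respiratory capacity grow during differentiation, and nuclear genes for mitochondrial proteins are classically linked to the transcription factors NRF1, GABP (an ETS-family factor) and YY1 and to the coactivators PGC-1α and PGC-1β. FOXK1 and FOXK2 are forkhead transcription factors, a family that binds DNA motifs built on the letters GTAAACA.

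The promoter letters that the later results refer to are shown first. RefSeq promoter entries (GRCm38.p6, 250 bases before and 50 after the start) were matched by symbol for 69 of the 78 members. The first sequence is the whole stretch of 41 bases between the divergently transcribed starts of Mrps11 and Mrpl46, the members with the 2 largest rises with Foxk2 overexpression, and it is followed by a stretch of the Mrpl47 promoter. In both, capitals mark GTAAAC or its reverse complement GTTTAC, the shorter core of the forkhead motif.
Mrps11, chr7:78783090-78783130, plus strand: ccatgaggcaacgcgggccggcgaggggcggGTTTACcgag
Mrpl47, chr3:32736877-32736906, minus strand, upstream of the start: aaagagagccctGTAAACtctatggcagac
The next 3 are the last 60 bases before the start of genes with Mrps symbols that carry the ETS letters CCGGAAG (or CTTCCGG on the other strand), the letters that ETS factors such as GABP recognise. Capitals mark those letters.
Mrps22, chr9:98601680-98601739, minus strand: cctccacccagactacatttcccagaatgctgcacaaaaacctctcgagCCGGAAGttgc
Mrps18a, chr17:46110944-46111003, plus strand: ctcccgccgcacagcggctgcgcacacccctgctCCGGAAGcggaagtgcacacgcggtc
Mrps27, chr13:99344726-99344785, plus strand: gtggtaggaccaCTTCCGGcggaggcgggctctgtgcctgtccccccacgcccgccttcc
The last shows the 30 bases before the start of Mrpl32, with the NRF1 letters GCATGCG read on both strands in capitals.
Mrpl32, chr13:14613038-14613067, minus strand: gacttaaCGCATGCGctcagcccgcgtccc

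ETS letters stood in 26 of the 69 member promoters (37.7%), against 9.93% of all 27025 genes with a promoter entry and 20.3% of the 9891 that were tested for expression. YY1 letters (AAGATGGCG) stood in 8 members, 11.6% against 1.64% of all genes and 3.64% of tested genes. The shorter NRF1 letters also stood in 8 members, against 4.01% and 7.24%, and the full NRF1 palindrome in 3 (Mrpl9, Mrpl32 and Mrpl39, 4.35% against 1.07% and 2.35%). The forkhead letters GTAAACA or TGTTTAC stood in 2 members, Mrpl40 and Mrpl44, which is 2.90% against 4.05% of all genes and 3.11% of tested genes. The shorter GTAAAC, which lies inside those letters and was looked for after the gap between Mrps11 and Mrpl46 had been read, stood in 8 members (11.6% against 8.92% and 7.68%). SP1 letters (GGGCGG) were in 49.3% of members, above the 38.2% of all genes and below the 67.6% of tested genes. E-box letters (CACGTG) were in 7.25% of members against 8.09% and 11.6%, and CCAAT in 39.1% against 41.1% and 42.8%. Both strands were searched for every motif, and a match is a run of letters, not a binding site.

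Total assigned reads, recovered from the table, were 16739763 to 20772823 in the Foxk1 libraries and 31378224 to 36157008 in the Foxk2 libraries. Member genes held 0.327 to 0.523% of these reads. Foxk1 transcript was 7.11, 7.48 and 8.04 RPKM (assigned reads scaled to the gene's exon bases and library size) in the empty-vector controls. Under the Foxk1 overexpression label it was 6.16, 6.06 and 6.08 RPKM, a fall by 0.28 ± 0.06 on the log2 scale. The measured transcript thus goes against that label, and the comparison is called labelled Foxk1 overexpression throughout. Foxk1 fell in its knockdown, from 7.98 to 8.80 RPKM down to 2.95 to 3.46. Foxk2 was 13.3 and 13.4 RPKM in its overexpression controls and 19.9 and 19.98 with overexpression, and went from 12.7 and 13.1 to 3.25 and 3.29 with knockdown. In the libraries labelled Foxk1 overexpression Foxk2 rose as well, by 0.29 ± 0.04 on the log2 scale (adjusted p = 2.68e-05), and with Foxk1 knockdown it fell by 0.19 ± 0.04. Foxk1 fell with Foxk2 overexpression, from 11.56 and 11.64 to 6.98 and 7.30 RPKM (-0.66 ± 0.07), and rose with Foxk2 knockdown, from 10.7 and 9.79 to 12.8 and 12.6 RPKM (0.30 ± 0.07).

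Of the 78 members, 77 reached 0.5 RPKM in at least 2 libraries and were tested. The other, Mrpl53, is listed at 0 in all 12 Foxk1 libraries and reached at most 0.23 RPKM in the Foxk2 libraries, and 88.0% of its exon bases are shared with Ccdc142os and Gm42688, so these values may not be its level. Mean levels of the tested members over the 20 libraries spanned from 2.18 RPKM for Mrps10 to 123 RPKM for Mrps6, with a median of 22.8 RPKM. By mean reads, which are not divided by length, Mrps10 (455) lay above Mrps36 (302) and Mrpl55 (281). On this scale per length, cytosolic ribosomal protein genes had a median of 172 RPKM and the Nduf genes of respiratory complex I one of 91.9 RPKM. The cytosolic genes differed between the sets, with sums of 25330 to 37094 RPKM in the Foxk1 libraries and 9029 to 11641 in the Foxk2 libraries. Their level beside the members thus depends on the set. After Mrps6 the highest members were Mrpl42, Mrpl12 (mean of 93.0 RPKM), a protein of the stalk that recruits translation factors, and Mrpl34. The lowest tested besides Mrps10 by this mean were Mrpl48 (4.45 RPKM) and Mrpl23 (5.29 RPKM), but the order differed between the sets: in the Foxk2-set controls Mrpl23 (2.23 RPKM) and Mrps36 (2.48 RPKM) lay just below Mrps10 (2.498 RPKM), and in the Foxk1-set controls Mrpl35 (6.17 RPKM) and Mrpl19 (6.20 RPKM) lay below Mrpl23 (7.18 RPKM).

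Most members were higher in both labelled overexpressions and lower in both knockdowns. Fold changes are differences of log2(RPKM + 0.5) with the model's standard error, and a gene was called where limma's Benjamini-Hochberg adjusted p over all 15981 genes tested was under 0.05. In the libraries labelled Foxk1 overexpression 57 of 77 members were higher and 2 lower, where 24.1% of all genes tested were higher and 23.8% lower. With Foxk2 overexpression 53 were higher and 1 lower, against 23.0% and 22.0% of all genes. Foxk1 knockdown lowered 48 members and raised 2, against 15.5% lower and 20.4% higher among all genes. Fitted on its 2 groups alone, this comparison gave 31 lower members. Foxk2 knockdown lowered 54 and raised 1, against 15.7% and 18.0%.

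The shifts were small. The median log2 fold change of the 77 members was 0.20 with labelled Foxk1 overexpression, -0.15 with Foxk1 knockdown, 0.27 with Foxk2 overexpression and -0.25 with Foxk2 knockdown, while the median of all genes tested lay between 0.00 and 0.02. These medians correspond to changes of 1.15-, 1.11-, 1.20- and 1.19-fold. Past 1.5-fold there were 2, 0, 5 and 0 called rises and 1, 0, 1 and 1 called falls in the same order, with Foxk1 knockdown moving no member that far. Libraries did not overlap between a manipulation and its control, in the direction of the median, for 55, 55, 61 and 67 members, against 26.4%, 18.9%, 36.2% and 32.5% of all genes. The summed level of the members was 2507 to 2536 RPKM in the empty-vector controls and 2760 to 2858 under the Foxk1 overexpression label, and 2375 to 2382 against 2120 to 2182 with Foxk1 knockdown. It went from 1909 and 2007 to 2235 and 2301 with Foxk2 overexpression, and from 2082 and 2101 to 1827 and 1858 with Foxk2 knockdown. In all 4 comparisons the summed levels of the manipulated libraries lay apart from those of their controls.

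**Figure D1:**
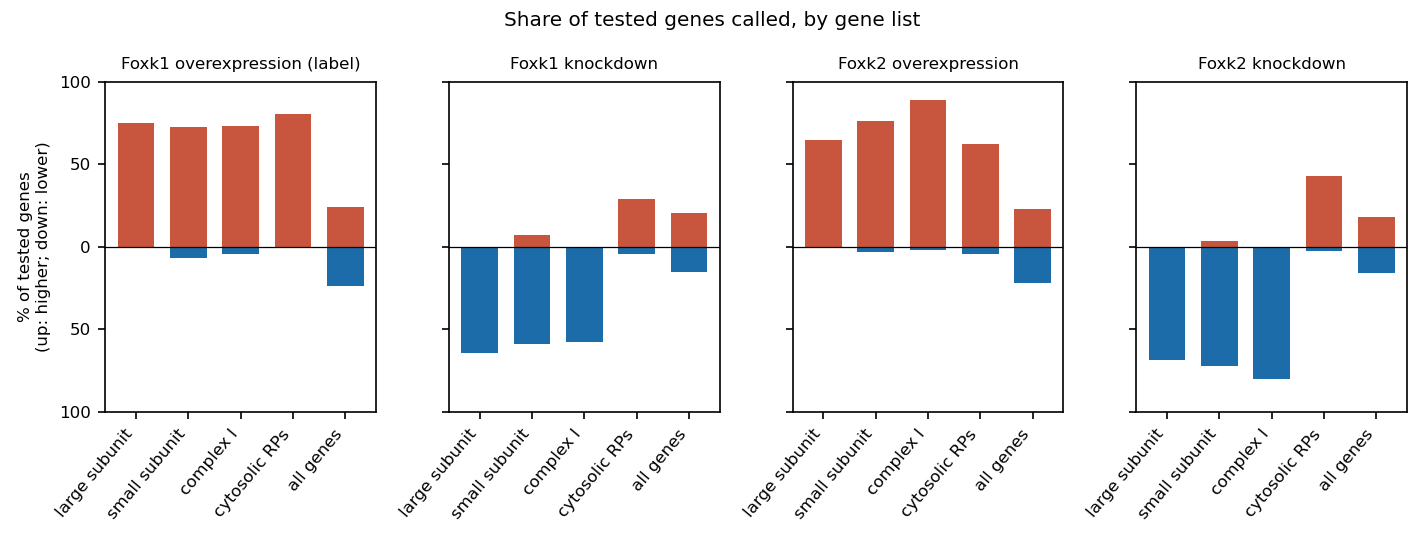
Share of tested genes called higher (upward bars) or lower (downward bars), in percent, for the large subunit, the small subunit, complex I, cytosolic ribosomal proteins and all genes tested, 1 panel per comparison. Both subunits and complex I stand mostly above 0 in the overexpression panels and mostly below 0 in the knockdown panels, whereas cytosolic ribosomal proteins stand mostly above 0 in all 4.

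Markers of preadipocytes, the fibroblast-like cells from which fat cells form, moved in each of these comparisons. Of 9 tested preadipocyte and fibroblast markers (of 10 listed, Cd34 being untested at 0 to 0.197 RPKM), 8 fell and 0 rose in each overexpression, and 9 rose in each knockdown. Their summed level was 406 to 505 RPKM in the empty-vector controls of the Foxk1 set and 134 to 145 RPKM under the Foxk1 overexpression label, and 621 to 647 against 1368 to 1424 RPKM with Foxk1 knockdown. In the Foxk2 set it went from 248 and 252 down to 108 and 109.7 RPKM with overexpression and from 162 and 164 up to 518 and 554 RPKM with knockdown. Adipocyte markers (11) did not follow the sign of the manipulation. Under the Foxk1 label 2 rose and 7 fell, where 24.1% of all genes tested rose and 23.8% fell. With Foxk1 knockdown 0 rose and 8 fell, against 20.4% and 15.5%. With Foxk2 overexpression 3 rose and 7 fell, against 23.0% and 22.0%, and with Foxk2 knockdown 0 rose and 5 fell, against 18.0% and 15.7%. Adipoq was at 647 to 3152 RPKM and Fabp4 at 891 to 1781 RPKM in all 20 libraries. Every adipocyte marker but Lep (0 to 1.16 RPKM) was at 26.4 RPKM or more in each library. The mean summed level of the adipocyte markers went from 13927 to 9141 RPKM under the Foxk1 label and from 13197 to 11086 with Foxk1 knockdown. In the Foxk2 set it went from 12029 to 7775 RPKM with overexpression and from 13226 to 11217 with knockdown. Macrophage markers (6) summed to 1.82 to 3.80 RPKM over all libraries, with Adgre1, Ptprc and Itgam at 0 in 16, 18 and 19 libraries and Cd68 and Csf1r at 0 in none. Of the 3 that were tested, Csf1r rose under the Foxk1 label (0.25 ± 0.08) and Cd68 with Foxk2 knockdown (0.69 ± 0.13), where the sum was 1.82 and 1.90 RPKM in the controls and 3.10 and 3.52 RPKM with knockdown. Endothelial markers summed to 0.129 to 0.372 RPKM, none reached the level for testing, and Kdr was at 0 in 13 libraries and Pecam1 in none. In bulk RNA, fewer cells of a type and less RNA per cell cannot be told apart. The part of other cell types in the members' shifts was not tested.

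**Figure D2:**
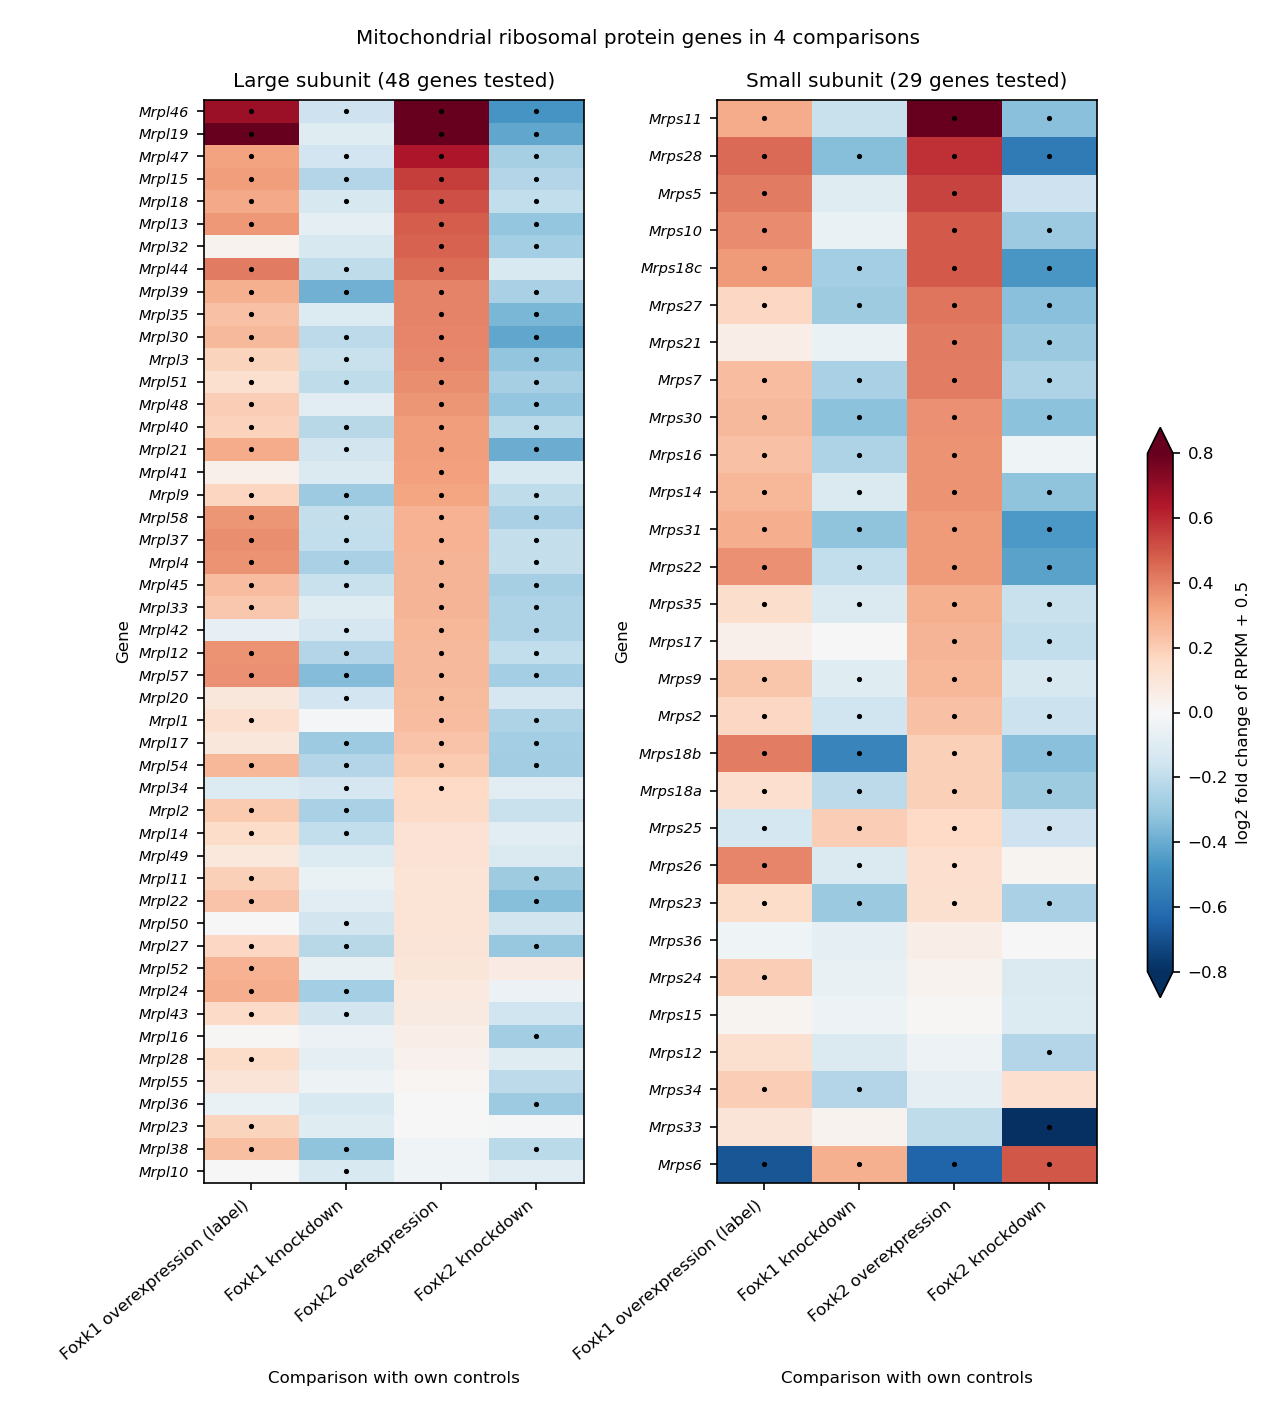
Heat map of log2 fold changes for the 48 large subunit and 29 small subunit genes tested, each row a gene and each column a manipulation against its own controls, sorted by the Foxk2 overexpression column. Black dots mark calls at an adjusted p under 0.05, red is higher, blue is lower, and colours saturate at 0.8 in either direction. Rows are red in both overexpression columns and blue in both knockdown columns for most genes, and Mrps6 at the bottom right has the reverse colours.

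The medians of the 2 subunits lay close together, although the difference between the subunits was not tested. Large subunit genes (48 tested) had 36 rises and 0 falls with labelled Foxk1 overexpression, 0 and 31 with Foxk1 knockdown, 31 and 0 with Foxk2 overexpression, and 0 and 33 with Foxk2 knockdown. Small subunit genes (29 tested) had 21 rises and 2 falls, 2 and 17, 22 and 1, and 1 and 21. Of all genes tested, 24.1% rose and 23.8% fell, 20.4% and 15.5%, 23.0% and 22.0%, and 18.0% and 15.7%, in the same order. Median log2 fold changes of the large and small subunit were 0.20 and 0.20, -0.15 and -0.12, 0.26 and 0.27, and -0.25 and -0.25. No large subunit gene was called against the common direction in any comparison, and the 6 calls against it in the small subunit came from Mrps6 in all 4 comparisons and Mrps25 in the Foxk1 comparisons. The grouping follows the symbols alone. Neither the place of each protein nor its presence in the ribosome, that of Mrps36 included, was checked. For example, the proteins of Mrps18a and Mrps30 are known to sit in the large subunit despite their names.

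Within the large subunit the widest response belonged to Mrpl46 (ENSMUSG00000030612.6, chr7:78775236-78783531, minus strand). It was 14.8 and 16.0 RPKM in the Foxk2 overexpression controls and 35.2 and 38.1 RPKM with Foxk2 overexpression. The libraries did not overlap, and the change was 1.22 ± 0.07 on the log2 scale (n = 2 against 2, limma adjusted p = 2.95e-09). In the Foxk1 set it rose from 16.2, 18.9 and 18.5 RPKM to 27.6, 29.0 and 30.4 RPKM under the overexpression label (log2 0.69 ± 0.06, adjusted p = 1.5e-07). Foxk2 knockdown lowered it from 19.2 and 18.5 to 13.9 and 13.0 RPKM (-0.47 ± 0.07), and Foxk1 knockdown from 15.6, 17.2 and 15.6 to 14.6, 13.8 and 14.5 RPKM (-0.17 ± 0.06, adjusted p = 0.039). That last call was lost when any 1 knockdown library or the second control library was left out, at -0.19 to -0.12 over the 6 single omissions.

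Its head-to-head neighbour Mrps11 (ENSMUSG00000030611.10, chr7:78783119-78792989, plus strand), a protein of the platform of the small subunit, starts 41 bases away, across the first sequence printed above. Mrps11 was 7.74 and 8.53 RPKM in the Foxk2 overexpression controls and 15.7 and 15.6 RPKM with Foxk2 overexpression, a change of 0.90 ± 0.08 (adjusted p = 3.42e-07). In the Foxk1 set it went from 11.2, 11.4 and 11.8 to 13.98, 16.0 and 12.8 RPKM (0.30 ± 0.07, adjusted p = 0.0021). Knockdown of Foxk2 moved it from 9.31 and 9.13 to 7.47 and 6.93 RPKM (-0.34 ± 0.08, adjusted p = 0.0053, a call lost without the second knockdown library), and Foxk1 knockdown gave -0.18 ± 0.07, which did not pass (adjusted p = 0.053). The outermost annotated exons of the pair overlap on opposite strands over 12.2% of the exon bases of Mrpl46. The strand setting of the counting is not given in the sources used here, so reads in those bases cannot be told apart.

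Mrpl19 (ENSMUSG00000030045.10, chr6:81957851-81965958, minus strand), another large subunit gene, rose in both labelled overexpressions. It was 6.87, 6.65 and 6.01 RPKM in the empty-vector controls of the Foxk1 set and 11.9, 12.6 and 11.9 under the label, and 5.16 and 5.24 against 9.62 and 9.87 RPKM in the Foxk2 set. Both differences were 0.85, with a standard error of 0.04 and 0.05 (adjusted p = 2.44e-10 and 3.49e-09), and neither pair of groups overlapped. The difference between the 2 effects was 0.00 ± 0.07 (adjusted p = 0.997). With Foxk2 knockdown it fell from 6.20 and 6.19 to 4.49 and 4.54 RPKM (-0.42 ± 0.05), while with Foxk1 knockdown it was 5.33 to 5.58 RPKM against 5.75 to 6.01 RPKM (-0.10 ± 0.04, adjusted p = 0.084). Mrpl19 shares 36.0% of its exon bases with Gcfc2 on the opposite strand, whose own changes were 0.21 and 0.25 with the 2 labelled overexpressions, and 0.05 and -0.02 with Foxk1 and Foxk2 knockdown, neither of which passed.

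Further large subunit genes rose by more than the median. Mrpl47, whose promoter stretch is printed above, rose by 0.64 ± 0.06 with Foxk2 overexpression (from 4.19 and 3.83 to 6.33 and 6.78 RPKM) and by 0.32 ± 0.05 under the Foxk1 label. Its fall with Foxk1 knockdown (-0.16 ± 0.05) was lost without any of 4 of the 6 libraries, and 24.2% of its exon bases are shared with Ndufb5 and Actl6a on the opposite strand. Mrpl15 rose by 0.56 ± 0.04 and 0.33 ± 0.03 in the same comparisons and fell by 0.24 ± 0.04 with Foxk2 knockdown and by 0.23 ± 0.03 with Foxk1 knockdown. Mrpl44, an RNase-like protein of the large subunit, rose by 0.41 ± 0.05 and 0.45 ± 0.06 with labelled Foxk1 and with Foxk2 overexpression, and its fall passed with Foxk1 knockdown alone (-0.20 ± 0.05, against -0.12 ± 0.06 with Foxk2 knockdown). Mrpl39 had the largest fall of the large subunit with Foxk1 knockdown, from 26.1, 24.6 and 24.7 to 18.7, 19.7 and 19.1 RPKM (-0.38 ± 0.04, adjusted p = 1.4e-06), and rose by 0.40 ± 0.05 with Foxk2 overexpression. Mrpl57 changed nearly symmetrically in the Foxk1 set, by 0.36 ± 0.05 and -0.34 ± 0.05. Mrpl30, Mrpl35 and Mrpl45 were called higher in both labelled overexpressions, and Mrpl30 and Mrpl45 lower in both knockdowns. For Mrpl45, a protein through which the ribosome is held at the inner membrane, the 4 values lay within 0.18 and 0.27 in size.

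Mrpl10, Mrpl11 and Mrpl12, which form the stalk and its base, had different sets of calls. Mrpl12 was called in all 4 comparisons (0.36 ± 0.06, -0.23 ± 0.06, 0.26 ± 0.07 and -0.19 ± 0.07), with levels of 106, 102 and 107 RPKM in the empty-vector controls of the Foxk1 set and 137, 134 and 132 RPKM under the label. Its call with Foxk2 knockdown (adjusted p = 0.038) was lost without either control library or without the second knockdown library, at -0.30 to -0.08 over the omissions, and its call with Foxk2 overexpression was lost without the first control library (0.15). Mrpl10 was called in 1 comparison, Foxk1 knockdown (-0.12 ± 0.04, adjusted p = 0.043), and that call was lost without any of 4 of the 6 libraries. Its level was 59.9 to 64.0 RPKM under the Foxk1 overexpression label and 60.5 to 63.2 RPKM in the controls, so that the groups overlapped. Mrpl11 was called in 2, labelled Foxk1 overexpression (0.19 ± 0.04) and Foxk2 knockdown (-0.28 ± 0.05). Of the other large subunit genes named by role, Mrpl41 passed with Foxk2 overexpression alone (0.33 ± 0.10, adjusted p = 0.014), a call lost without the first control or the second overexpression library.

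**Figure D3:**
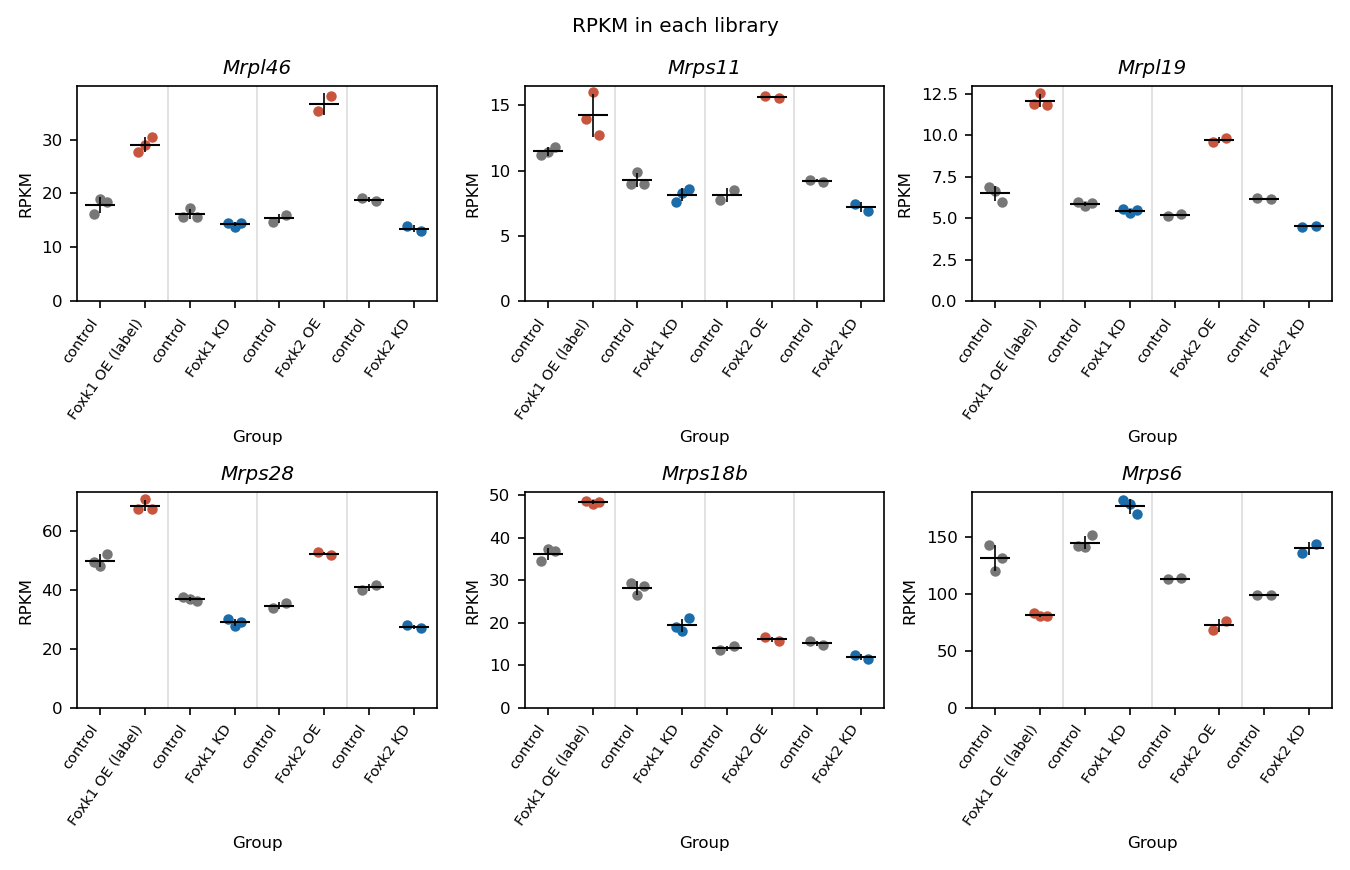
RPKM of 6 members in each library, by group, on axes that start at 0, with points for libraries (grey controls, red overexpression, blue knockdown), a horizontal bar for the mean and a vertical bar for the SD. Mrpl46 reaches 35.2 and 38.1 RPKM with Foxk2 overexpression against 14.8 and 16.0 RPKM in its controls, and Mrps6 moves the other way in all 4 comparisons.

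In the small subunit Mrps28 (ENSMUSG00000040269.5, chr3:8802146-8923918, minus strand) was called in all 4 comparisons. It was 49.7, 48.1 and 52.3 RPKM in the empty-vector controls of the Foxk1 set and 67.7, 71.0 and 67.6 RPKM under the label (0.45 ± 0.04). With Foxk1 knockdown it went from 37.6, 37.1 and 36.2 to 30.3, 27.9 and 29.2 RPKM (-0.34 ± 0.04). Foxk2 overexpression raised it from 34.0 and 35.5 to 52.8 and 52.0 RPKM (0.59 ± 0.05), and Foxk2 knockdown lowered it from 40.1 and 41.8 to 28.0 and 27.0 RPKM (-0.57 ± 0.05). None of these 4 pairs of groups overlapped, and the adjusted p ranged from 4.49e-08 to 3.36e-06.

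The Mrps18 genes are 3 paralogues that descend from 1 bacterial ribosomal protein, and the 3 proteins take different places in the particle, Mrps18a in the large subunit and the other two in the small one. All 3 were called in all 4 comparisons in the common direction, with different sizes. Mrps18b changed most with Foxk1 knockdown, from 29.4, 26.4 and 28.7 to 19.1, 18.1 and 21.03 RPKM (-0.53 ± 0.05, adjusted p = 1.71e-06), the largest fall of any member in that comparison. Mrps18c changed most in the Foxk2 set, by 0.49 ± 0.08 and -0.47 ± 0.08. Mrps18a had the smallest changes, at 0.14 ± 0.05, -0.21 ± 0.05, 0.19 ± 0.06 and -0.28 ± 0.06. The Foxk2 overexpression calls of Mrps18a and Mrps18b (0.19 ± 0.07 for Mrps18b) were lost without the first control or the first overexpression library, and the call of Mrps18a under the Foxk1 label without the second control, the first or the second manipulated library. Exact or near-exact stretches (at least 99% identity over 100 bases) of 38.6% of the Mrps18b transcript recur in the pseudogene Gm13552. The level of Mrps18b is therefore uncertain where reads were split. Opposite-strand exons of Gm16279 also cover 30.5% of its exon bases, and same-strand exons of Gm43511 cover 23.2% of those of Mrps18c.

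Where called, the next genes with Mrps symbols moved in the common direction. Mrps27, an RNA-binding protein of the small subunit with ETS letters in the printed promoter stretch, was called in all 4 comparisons. It went from 14.7 and 16.8 to 21.5 and 21.3 RPKM with Foxk2 overexpression (0.43 ± 0.08). With Foxk2 knockdown it went from 18.4 and 19.5 to 15.0 and 14.8 RPKM (-0.34 ± 0.08). Opposite-strand exons of 6430562O15Rik cover 24.2% of the exon bases of Mrps27. Mrps22, also shown above, rose by 0.37 ± 0.05 and 0.34 ± 0.06 and fell by 0.20 ± 0.05 and 0.43 ± 0.06 in the Foxk1 and Foxk2 comparisons. Mrps30 was called in all 4, at 0.26 ± 0.08, -0.33 ± 0.08, 0.37 ± 0.10 and -0.33 ± 0.10, and all but the Foxk1 knockdown call were lost on leaving out 1 library or another. Mrps31 fell by 0.32 ± 0.05 and 0.46 ± 0.06 with knockdown of Foxk1 and Foxk2, and Mrps5 rose by 0.42 ± 0.06 and 0.54 ± 0.07 in the labelled overexpressions without a call in either knockdown. Mrps12, a protein of the decoding centre, was called with Foxk2 knockdown alone (-0.24 ± 0.07, adjusted p = 0.015), and this call was lost without either control library or without the second knockdown library.

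Mrps6 (ENSMUSG00000039680.9, chr16:92058270-92112227, plus strand), the member of highest mean RPKM, went against most members in all 4 comparisons. By mean reads, not divided by length, Mrpl12 (3379) lay above Mrps6 (3085). It was 143, 120.8 and 132 RPKM in the empty-vector controls of the Foxk1 set and 83.1, 80.5 and 80.8 RPKM under the label (-0.69 ± 0.05, adjusted p = 4.19e-08). With Foxk1 knockdown it was 183, 179 and 170.3 RPKM against 143, 142 and 152 RPKM (0.29 ± 0.05, adjusted p = 0.000585). Foxk2 overexpression lowered it from 113 and 114 to 68.7 and 76.4 RPKM (-0.64 ± 0.07), and Foxk2 knockdown raised it from 98.99 and 99.5 to 137 and 145 RPKM (0.50 ± 0.07). In none of the 4 did the groups overlap. In the GENCODE annotation a Mrps6 transcript and a transcript of Slc5a3, the sodium and myo-inositol cotransporter, have first exons on the same strand that begin at chr16:92058270 and chr16:92058322 and share the end at chr16:92058480. The exon bases of Mrps6 overlap those of Slc5a3 and Gm49711 over 19.9%. Slc5a3 changed in the same directions as Mrps6, by -1.08 ± 0.06, 0.43 ± 0.06, -0.30 ± 0.08 and 0.90 ± 0.08 in the order above, at 6.64 to 17.5 RPKM over the 20 libraries. Its part in the Mrps6 values was not tested.

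Mrps25 was the other member called against the common direction, and only in the Foxk1 set. It went from 10.9, 10.7 and 11.2 to 10.1, 9.73 and 9.81 RPKM under the overexpression label (-0.14 ± 0.03) and from 10.6, 11.05 and 11.02 to 12.5, 12.4 and 12.9 RPKM with Foxk1 knockdown (0.20 ± 0.03). In the Foxk2 set it followed the other members, at 0.16 ± 0.04 with overexpression and -0.16 ± 0.04 with knockdown. Opposite-strand exons of Nr2c2, a nuclear receptor gene, cover 69.8% of its exon bases. Nr2c2 changed by -0.17 and 0.22 in the Foxk1 set, and by 0.16 with Foxk2 knockdown, while its -0.14 with Foxk2 overexpression did not pass.

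Some values rest on shared bases or on single libraries. Mrps33 had the largest fall of all, -1.25 ± 0.40 with Foxk2 knockdown (adjusted p = 0.024), from 5.93 and 22.3 RPKM against 29.5 and 27.1 RPKM in the controls. Without the first knockdown library the difference was -0.34 and was not called, the call was also lost without either control library, and the 2 Foxk2 overexpression libraries were also unequal, at 13.6 and 29.6 RPKM. Near-exact stretches of 29.0% of its transcript recur in Gm5776. Mrps34 shares 77.8% of its exon bases with Mapk8ip3 and Nme3, and was called higher under the Foxk1 label (0.20 ± 0.07) and lower with Foxk1 knockdown (-0.23 ± 0.07) without a call in the Foxk2 set. The first of these calls was lost without any of 3 single libraries and the second without the third knockdown library. In all, 58 of the 77 tested members share at most 10% of their bases with another gene or a copy. These 58 are a subset chosen after the values were seen. Among them 43 rose and 0 fell under the Foxk1 label, and 0 and 35 with Foxk1 knockdown. Foxk2 overexpression gave 43 and 0, and Foxk2 knockdown 0 and 43. Of all genes tested, 24.1% rose and 23.8% fell, 20.4% and 15.5%, 23.0% and 22.0%, and 18.0% and 15.7%, in the same order.

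Genes called higher under a factor's overexpression label and lower with its knockdown were common among members, with the Foxk1 label going against the Foxk1 transcript as given above. For Foxk1 the label and the knockdown gave 42 such members of 77, where 8.82% of all genes tested had this pattern, and for Foxk2 they gave 46, against 10.4%. Both factors at once gave 32 members, against 4.52% of all genes. The reverse pattern held for 2 members in the Foxk1 set (Mrps6 and Mrps25, against 12.5% of all genes), for 1 in the Foxk2 set (against 11.6%) and for 1 in both (Mrps6, against 6.98%). By sign alone, without a call, 62 of 77 members were positive in both labelled overexpressions and negative in both knockdowns, against 17.7% of all genes.

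**Figure D4:**
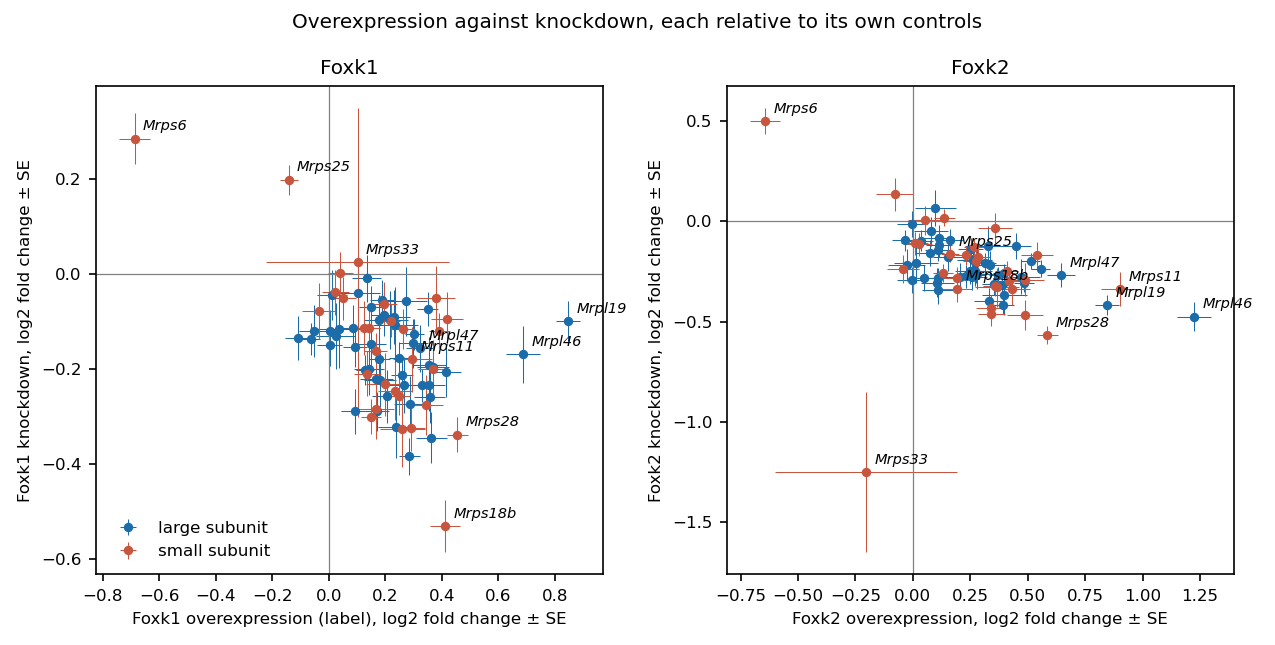
Log2 fold change with overexpression (horizontal axis) against log2 fold change with knockdown (vertical axis) for each tested member, with standard errors, Foxk1 at left and Foxk2 at right, blue for the large and red for the small subunit. Most points lie at the lower right of both panels, Mrps6 lies in the upper left of both at -0.69 and 0.29 and at -0.64 and 0.50, and Mrps33 lies low in the Foxk2 panel at -1.25 with a long error bar.

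Effects of overexpression and knockdown were related loosely across the 77 members. Pearson's r between overexpression and knockdown effects was -0.51 for Foxk1 and -0.38 for Foxk2 (Spearman's rho -0.40 and -0.49), against -0.48 and -0.57 across all 15981 genes. The 2 labelled overexpressions correlated at 0.69 (all genes 0.62) and the 2 knockdowns at 0.23 (all genes 0.51). By Spearman's rho these were 0.55 (all genes 0.56) and 0.20 (all genes 0.50). Members with more exon bases had somewhat larger overexpression effects (r = 0.27 and 0.24 with log2 length). Members at higher levels had somewhat smaller ones (r = -0.35 and -0.33 with log2 mean RPKM). Length here counts the exon bases of all annotated transcripts of a gene, not those of 1 transcript. Length and level themselves correlated at -0.81, in part because RPKM is divided by this length. These are descriptions across genes of the same libraries, which are not independent replicates.

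The effects of the 2 factors were then set against each other. The Foxk1 minus Foxk2 difference between overexpression effects passed for 14 of 77 members, against 25.1% of all genes tested, and was negative for 13 of them and positive for 1 (13.5% and 11.6% of all genes). The largest were Mrps11 at -0.61 ± 0.11 (adjusted p = 0.00081), Mrpl46 at -0.54 ± 0.09 (adjusted p = 0.00077), Mrpl32 at -0.44 ± 0.11 (adjusted p = 0.00796) and Mrps21 at -0.37 ± 0.07 (adjusted p = 0.0014), so that each rose more with Foxk2 overexpression than under the Foxk1 label. Mrpl32, whose printed promoter end carries NRF1 letters, was 51.2, 54.5 and 47.7 RPKM against 56.9, 49.3 and 50.02 RPKM in the Foxk1 set (0.03 ± 0.07), and 24.8 and 24.8 against 33.1 and 36.1 RPKM in the Foxk2 set (0.47 ± 0.09). Mrps26 alone had a positive difference (0.25 ± 0.06), with a rise of 0.39 ± 0.04 under the Foxk1 label and of 0.14 ± 0.04 with Foxk2.

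Between knockdown effects the difference passed for 10 members, against 14.3% of all genes, and 9 of the 10 were positive and 1 negative (6.68% and 7.63% of all genes). In these 9 the Foxk2 knockdown effect was the lower one. Mrps25 had the largest of these with 0.36 ± 0.05 (adjusted p = 0.00019), followed by Mrpl19 with 0.32 ± 0.07 and Mrpl46 with 0.31 ± 0.09, and Mrps34 had the 1 negative difference at -0.37 ± 0.10. The call of Mrpl46 (adjusted p = 0.041) was lost in 8 of the 10 single omissions of a library and that of Mrps34 (adjusted p = 0.028) in 5. The count of 10 itself was 5 without the first Foxk1 control, 2 without the second Foxk2 control and 4 without the first Foxk2 knockdown library. The 2 sets differ in depth and in the number of libraries, and Foxk1 transcript did not rise under its label, so a difference between factors and a difference between sets cannot be told apart.

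Divergent promoters were frequent among members. By RefSeq starts, 24 of the 69 members with a promoter entry (34.8%) have a protein-coding gene that starts on the other strand within 1000 bases upstream, against 14.2% of 9159 tested protein-coding genes, 14.3% of 63 cytosolic ribosomal protein genes and 12 of 40 complex I genes. Mrps11 and Mrpl46 face each other, and the other 22 have partners that are no members. Of the 22 partners 8 rose and 2 fell under the Foxk1 label, against 24.1% and 23.8% of all genes tested. With Foxk1 knockdown 3 rose and 0 fell, against 20.4% and 15.5%. With Foxk2 overexpression 5 rose and 3 fell, against 23.0% and 22.0%, and with Foxk2 knockdown 1 rose and 3 fell, against 18.0% and 15.7%. Median log2 fold changes of the partners were 0.08, 0.00, 0.08 and -0.03, against 0.23, -0.19, 0.33 and -0.26 for the 24 members themselves. Whether members and partners differ was not tested.

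In some pairs both genes moved the same way, and in others they did not. Ndufb5, a complex I subunit whose start lies 307 bases from that of Mrpl47, rose by 0.62 ± 0.05 with Foxk2 overexpression beside 0.64 for Mrpl47, and fell by 0.21 ± 0.05 with Foxk2 knockdown beside -0.27 for Mrpl47, the pair whose exons overlap. Ptcd2, an RNA-processing gene of mitochondria opposite Mrps27, rose by 0.38 ± 0.08 and fell by 0.37 ± 0.08 in the Foxk2 set, and the proteasome gene Psma2 opposite Mrpl32 rose by 0.38 ± 0.06 and fell by 0.34 ± 0.06. In contrast, Klc4, opposite Mrpl2, fell by 0.26 ± 0.06 under the Foxk1 label, where Mrpl2 rose by 0.21, and fell by 0.32 ± 0.08 with Foxk2 overexpression, where Mrpl2 was at 0.15 and not called. Sars2, the mitochondrial seryl-tRNA synthetase opposite Mrps12, rose with Foxk2 overexpression by 0.32 ± 0.08 while Mrps12 was at -0.04 ± 0.07. These pairs were picked after their values were seen.

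Responses were also set out by promoter letters. The 25 tested members with ETS letters had median log2 fold changes of 0.19, -0.18, 0.26 and -0.27 in the 4 comparisons, and the 43 tested members with a promoter entry but without them had 0.18, -0.13, 0.27 and -0.20. Among the 8 members with the forkhead core GTAAAC (Mrpl3, Mrpl34, Mrpl40, Mrpl44, Mrpl45, Mrpl46, Mrpl47 and Mrps11) the medians were 0.27, -0.18, 0.42 and -0.27, with 7, 0, 8 and 0 rises and 0, 7, 0 and 6 falls. Rises made up 24.1%, 20.4%, 23.0% and 18.0% of all genes tested in the same order, and falls 23.8%, 15.5%, 22.0% and 15.7%. Mrps11 and Mrpl46 share their stretch of GTTTAC, and this motif was chosen after the values were known. No comparison of these 8 members with the rest was tested.

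Where called, genes that work with the mitochondrial ribosome moved mostly in the same directions. For these lists and those of the next paragraphs, all genes tested give the shares to compare. They were 24.1% higher and 23.8% lower under the Foxk1 label, and 20.4% and 15.5% with Foxk1 knockdown. They were 23.0% and 22.0% with Foxk2 overexpression, and 18.0% and 15.7% with Foxk2 knockdown. Of 5 tested ribosomal proteins with other symbols, 4 rose and 0 fell under the Foxk1 label, 0 and 4 with Foxk1 knockdown, 5 and 0 with Foxk2 overexpression, and 0 and 1 with Foxk2 knockdown. Chchd1 rose by 0.50 ± 0.07 and 0.45 ± 0.09 in the labelled overexpressions, and Ptcd3, a pentatricopeptide protein of the small subunit, was called in all 4 (0.14 ± 0.05, -0.16 ± 0.05, 0.42 ± 0.06 and -0.18 ± 0.06). Of 14 translation factors, 9 rose and 1 fell, 0 and 7, 7 and 0, and 0 and 9 in the same order of comparisons. Gfm1, elongation factor G of mitochondria, was 32.1 ± 0.523 RPKM (SD, n = 2) in the Foxk2 overexpression controls and 42.3 ± 2.24 RPKM (SD, n = 2) with overexpression, a rise of 0.39 ± 0.05 (adjusted p = 1.17e-05), and fell by 0.28 ± 0.05 with Foxk2 knockdown.

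Of 30 genes for assembly and ribosomal RNA handling, 14 rose and 1 fell under the Foxk1 label, 1 rose and 8 fell with Foxk1 knockdown, 12 rose and 4 fell with Foxk2 overexpression, and 0 rose and 13 fell with Foxk2 knockdown. Lrpprc, which stabilises mitochondrial messages, was called in all 4 (0.30 ± 0.04, -0.25 ± 0.04, 0.50 ± 0.05 and -0.20 ± 0.05), as was Tfb1m, the methyltransferase of the small ribosomal RNA (0.30 ± 0.04, -0.18 ± 0.04, 0.18 ± 0.04 and -0.55 ± 0.04). Mterf4, which guides a methyltransferase to the large subunit, moved the other way and only in the Foxk1 set, from 11.2 ± 0.762 to 3.80 ± 0.276 RPKM under the label (SD, n = 3, -1.44 ± 0.06) and from 11.7 ± 0.213 to 23.4 ± 2.14 RPKM with knockdown (0.97 ± 0.06). Its Foxk2 values were 0.16 ± 0.08 and 0.01 ± 0.08, and the differences between the factors passed, at -1.61 and 0.96.

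Mitochondrial transcription factors gave 3 rises and 1 fall, 0 and 2, 3 and 1, and 0 and 3 among 7 genes. Tfam, which packages mitochondrial DNA and takes part in its transcription, rose by 0.19 ± 0.04 and 0.46 ± 0.05 in the labelled overexpressions. It fell by 0.49 ± 0.05 with Foxk2 knockdown, with no call in Foxk1 knockdown (-0.02 ± 0.04, limma adjusted p = 0.73). Of 11 regulators of nuclear genes for mitochondria, 7 rose and 0 fell under the Foxk1 label, 1 rose and 3 fell with Foxk1 knockdown, 6 rose and 2 fell with Foxk2 overexpression and 3 rose and 0 fell with Foxk2 knockdown. Ppargc1b, which encodes PGC-1β, rose by 0.56 ± 0.05 and 0.66 ± 0.06 in the labelled overexpressions and fell by 0.42 ± 0.05 with Foxk1 knockdown, and Esrra, its partner receptor ERRα, changed by 0.47 ± 0.06, 0.54 ± 0.07 and -0.32 ± 0.06. With Foxk2 knockdown, where 54 members fell, neither passed (-0.10 ± 0.06 and -0.08 ± 0.07). Other regulators went against the members in the Foxk2 set. The 3 that rose with Foxk2 knockdown were Pprc1, Yy1 and Myc. Myc fell from 26.2 and 25.3 to 17.5 and 17.9 RPKM with Foxk2 overexpression (-0.53 ± 0.08) and rose by 0.22 ± 0.08 with Foxk2 knockdown, although it rose by 0.38 ± 0.07 under the Foxk1 label. Pprc1, a relative of the PGC-1 coactivators, fell by 0.28 ± 0.10 with Foxk2 overexpression and rose from 4.74 and 4.35 to 6.11 and 6.08 RPKM with Foxk2 knockdown (0.39 ± 0.10).

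The ribosomal RNAs and messages of the mitochondrial genome had mixed calls. mt-Rnr1, the RNA of the small subunit, rose under the Foxk1 label (0.42 ± 0.06), fell with Foxk1 knockdown (-0.26 ± 0.06) and rose with Foxk2 overexpression (0.38 ± 0.07), as most members did, but it also rose with Foxk2 knockdown (0.62 ± 0.07). mt-Rnr2, the RNA of the large subunit, was called in no comparison (0.10 ± 0.07, -0.13 ± 0.07, 0.20 ± 0.09 and 0.19 ± 0.09). Of 13 mitochondrial mRNAs, the templates of this ribosome, 0 rose and 2 fell under the Foxk1 label, 5 rose and 0 fell with Foxk1 knockdown, 2 rose and 0 fell with Foxk2 overexpression, and 8 rose and 1 fell with Foxk2 knockdown.

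The largest of these differences were in the Foxk2 set, where libraries of 1 group also differed from each other. Copies were searched for the members alone, so whether reads of mitochondrial genes were shared with copies elsewhere in the genome was not tested. With Foxk2 knockdown mt-Nd3 was 597.5 and 1178 RPKM against 61.0 and 7.51 RPKM in the controls (5.24 ± 0.91, adjusted p = 0.00033), and mt-Co2 was 4732 and 10779 RPKM against 737 and 113 RPKM (4.62 ± 0.82). With Foxk2 overexpression mt-Nd3 was 914 and 96.7 RPKM against 1014 and 942 RPKM (-1.71 ± 0.91, adjusted p = 0.15), which did not pass. mt-Nd6, in comparison, rose by 0.46 ± 0.08 with Foxk1 knockdown and by 0.39 ± 0.10 with Foxk2 overexpression, and mt-Cytb rose by 0.31 ± 0.06 with Foxk1 knockdown and fell by 0.31 ± 0.08 with Foxk2 knockdown. All mitochondrial genes together held 5.14 and 7.80% of reads in the 2 Foxk2 overexpression libraries and 4.85 and 6.72% in the 2 Foxk2 knockdown libraries. The summed level of the 13 mRNAs was 30273 and 32755 RPKM in the Foxk2 knockdown controls and 44904 and 67850 RPKM with knockdown.

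Cytosolic ribosomal protein genes, which serve the other ribosome of the cell, had other directions in the knockdowns. With overexpression 70 of 87 cytosolic genes were higher and 0 lower under the Foxk1 label (median 0.27), and 54 higher and 4 lower with Foxk2 (median 0.25). With knockdown the cytosolic genes had 25 rises and 4 falls for Foxk1 (median 0.07) and 37 rises and 2 falls for Foxk2 (median 0.14). The pattern of called rises in both labelled overexpressions and called falls in both knockdowns held for 1 of 87 cytosolic genes, 32 of 77 members and 21 of 45 complex I genes. Complex I genes had 33 rises and 2 falls, 0 and 26, 40 and 1, and 0 and 36, with medians of 0.23, -0.14, 0.44 and -0.25. The differences between these gene lists were not tested.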

How the data were processed

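The deposited table holds RPKM values that the authors made, per the submitters' processing notes, with HISAT2 2.1.0, Picard 1.141, featureCounts (Subread 1.5.1) and edgeR on mm10, and the strand setting is not given in the sources used here. Of the nonzero values of genes matched with version to GENCODE M21, 100% came out as whole reads within 0.1 read, and these reads give the depths. Genes with at least 0.5 RPKM in at least 2 of the 20 libraries were kept (15981). They were fitted as log2(RPKM + 0.5) in limma 3.58.1 (R 4.3.3) with all 8 groups and 12 residual degrees of freedom. Adjusted p-values are Benjamini-Hochberg over all genes tested, and the fold change on this scale understates that of low genes. Each manipulation was set against its own controls, and the 2 factors by the difference of those effects.

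Shared exons were taken from GENCODE M21, near-identical copies from BLAST+ 2.17.0 (99% identity over 100 bases) and promoters from RefSeq. The fitting code was tested on simulated data. Members and lists were chosen with earlier results of these data known. Genes are named by this rule: Foxk1 and Foxk2, the 6 largest called rises and falls per comparison with a mean of at least 2 RPKM, the 4 highest and 4 lowest members, up to 6 members per factor called in opposite directions, the 4 largest differences between factors, 12 members chosen by role, and up to 3 genes per other list and comparison. Promoter partners, overlapping genes and members shown for motifs or levels stand outside it and were chosen after their values were seen. Alternatives covered filters, pseudocounts, scaling, length and GC trends, the libraries fitted, limma-voom on the recovered reads, a replicate block and leaving out each library.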

Additional observations from a re-analysis of the deposited data

Results flagged for a closer look

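These members were singled out because the model's test found their Foxk1 and Foxk2 effects to differ (limma, adjusted p under 0.05). Between overexpression effects the difference was negative for 13 and positive for 1 of 77 members, against 13.5% and 11.6% of all genes tested. In either direction it passed for 25.1% of all genes, so such differences are not particular to members. Foxk1 minus Foxk2 differences between overexpression effects, on the log2 scale, were -0.61 for Mrps11, -0.54 for Mrpl46, -0.44 for Mrpl32, -0.37 for Mrps21, -0.33 for Mrpl42, -0.32 for Mrpl47 and -0.30 for Mrps25. Smaller negative differences were -0.27 for Mrpl34, -0.24 for Mrpl51, -0.23 for Mrps17, -0.22 for Mrpl15, -0.21 for Mrpl18 and -0.21 for Mrpl3, and Mrps26 had the 1 positive difference at 0.25. Mrpl42 and Mrpl34 were among the 4 members of highest mean RPKM. Under the Foxk1 label they were at -0.06 ± 0.03 and -0.11 ± 0.05, neither of which passed. They rose by 0.27 ± 0.04 and 0.16 ± 0.06 with Foxk2 overexpression.

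Between knockdown effects the differences were 0.36 for Mrps25, 0.32 for Mrpl19, 0.31 for Mrpl46, 0.24 for Mrps21, 0.24 for Mrpl13, 0.23 for Mrpl11, 0.23 for Mrps28, 0.23 for Mrpl48 and 0.20 for Mrpl30. Mrps34 was at -0.37. The difference was thus positive for 9 and negative for 1 of 77 members, against 6.68% and 7.63% of all genes tested. With 1 library left out, 2 to 14 members passed. Foxk1 transcript did not rise under its overexpression label, and the factor and the library set cannot be told apart.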

How the results depend on the processing

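The median effect of the members kept its sign in all 4 comparisons under every alternative run, scalings included, and no named value reversed. With 1 library left out, members called were 49 to 56 higher and 2 to 3 lower under the Foxk1 label, 38 to 42 lower with Foxk1 knockdown, 41 to 51 higher with Foxk2 overexpression, and 39 to 46 lower and 1 to 2 higher with Foxk2 knockdown. Differences between the factors were the least stable: 10 to 16 for overexpression and 2 to 14 for knockdown effects with 1 library left out. The 10 knockdown differences were 5 with no filter, 6 after removing a length and GC trend and 6 among the 58 members with few shared bases. Among those 58, counts against the common direction were 0 in each comparison, where the count is over fewer genes. The 2 members lower under the Foxk1 label were 4 with quantile normalization and 4 without the length and GC trend. Members lower with Foxk1 knockdown were 31 when its 2 groups were fitted alone, on fewer libraries. The median with Foxk2 knockdown was -0.28 with median-ratio scaling and -0.21 without the length and GC trend. Otherwise the cause was not tested. With a replicate block the calls were 54 higher and 2 lower under the Foxk1 label, 2 and 41 with Foxk1 knockdown, 53 and 1 with Foxk2 overexpression, 1 and 50 with Foxk2 knockdown, and 15 and 7 differences between factors. Same-numbered libraries correlated at -0.0858 to 0.0331 in their deviations, some best with their own number and some not. In groups of 2 libraries the deviations mirror each other, so there the check cannot decide whether the numbers pair libraries. The main model used no pairing. Limma-voom on the recovered reads called 57, 43, 54 and 58 members in the common direction. Of the alternatives for single named genes, 4068 kept direction and side of the threshold, 204 lost a call and 48 gained one. Groups of 2 or 3 libraries limit the precision of single genes.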

Other observations

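Control levels of some members differed between the 2 sets of libraries. Among the 6 control libraries of the Foxk1 set and the 4 of the Foxk2 set, 8 of 77 members differed by more than 2-fold, all higher in the Foxk1 set, where the median ratio over members was 1.11. Mrps36 was 18.4 ± 1.07 RPKM (SD, n = 6) against 2.48 ± 0.2497 RPKM (SD, n = 4), a ratio of 7.40, and near-exact stretches of 44.1% of its transcript recur in the pseudogenes Mrps36-ps1 and Mrps36-ps2. Ratios were 3.23 for Mrpl47, 3.22 for Mrpl23, 2.86 for Mrps34, 2.21 for Mrps18b, 2.16 for Mrps30, 2.12 for Mrpl52, and Mrps25 lay just past the limit. Of the 8, 5 share over 10% of their bases with another gene or a copy, as do 19 of the 77. The part of shared bases in these levels was not tested. Beyond the order of the lowest members and the cytosolic sums given above, levels were compared between sets nowhere else.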
